A study of Mus musculus with 12 samples.

Results

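The hedgehog receptors and Gli factors are 9 genes of the 23079 in the deposited table, found by their symbols: Ptch1, Boc, Gas1, Hhip, Smo, Sufu, Gli1, Gli2 and Gli3. Their RNA was compared between 2 groups of midbrain dopaminergic neurons of C57BL/6 mice, those of the substantia nigra pars compacta (SNpc) and those of the ventral tegmental area (VTA). The samples are labelled TRAP, the usual short form of translating ribosome affinity purification, a method that pulls RNA on tagged ribosomes of a chosen cell type out of tissue. Each region had 6 columns, of which 1 pair per region held identical counts for every gene (0 genes different), so each pair was counted as 1 sample and 5 libraries per region remained. No treatment, age, sex, transgene, driver of the ribosome tag or pooling of animals is given in the sources used here, and both regions share the strain. No label ties a library to an animal, so p-values measure the spread between libraries, which may be technical. The members were chosen by their counts in these same columns, compared between SNpc and VTA, so their values below are a description and support no test.

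Hedgehog ligands are secreted proteins that bind Ptch1, a membrane receptor that holds the transducer Smo inactive while no ligand is bound. Active Smo moves into the primary cilium and releases the zinc finger proteins Gli2 and Gli3 from Sufu, so that less of them is cut to repressor forms and more acts on target genes. Ptch1, Gli1 and Hhip are themselves classical targets of the Gli proteins. In the ventral midbrain the pathway patterns the floor plate from which dopaminergic neurons arise, and adult dopaminergic neurons are known to make Sonic hedgehog while astrocytes are known to express Gli genes.

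The libraries held 62356964 to 81393907 counts each, and Th, Slc6a3 and Slc18a2, which define dopaminergic neurons, were present in every library (lowest values 1693, 1674 and 489 counts scaled to the library total, CPM). These and the values below are CPM after TMM scaling (the trimmed mean of M values). Library 4 of the SNpc stood apart, with an astrocyte marker level (mean log2 CPM 3.72) above that of the other SNpc libraries (2.19 to 2.37) and of all VTA libraries (3.17 to 3.70). By summed CPM of the same markers it had 519.7, above the other SNpc libraries (at most 329) but above only VTA library 5 (508) of the VTA libraries. It did not stand apart by astrocyte markers alone. Its oligodendrocyte marker level (mean log2 CPM 6.13) was above the other SNpc libraries (4.08 to 4.85) and all VTA libraries (5.11 to 5.51). The neuronal markers Gad1 (67.6 CPM) and Slc32a1 (24.9) were above every VTA library too, while Gad2 (221) lay within the VTA range. VTA library 1 had the highest endothelial sum (103 CPM, other VTA libraries 4.18 to 13.8). RNA of other cells reaches such libraries, and in bulk RNA fewer cells of a type cannot be told apart from less RNA per cell.

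Ptch1, Gli2, Gli3 and Smo were higher in every VTA library than in any SNpc library, by 3.92-fold, 6.23-fold, 6.02-fold and 4.69-fold in the fitted model. Ptch1 was far more abundant than the other members. Gas1 was 2.79-fold higher in VTA with overlapping libraries, and Gli1, Hhip, Sufu and Boc overlapped widely. Of the 9 members, 5 were called higher in VTA at an adjusted p under 0.05 (edgeR quasi-likelihood test with adjustment by Benjamini-Hochberg), against 20.4% of the 15685 genes tested, and 38.2% of all genes were called in either direction. In SNpc 0 members were called higher, where 17.8% of all genes were, with 0 at an unadjusted p under 0.05 and 0 by DESeq2. The groups did not overlap for 4 members, all higher in VTA, as for 14.6% of all genes tested. All 9 passed the filter on low counts, and since the same contrast chose them nothing is read from these counts.

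**Figure D1:**
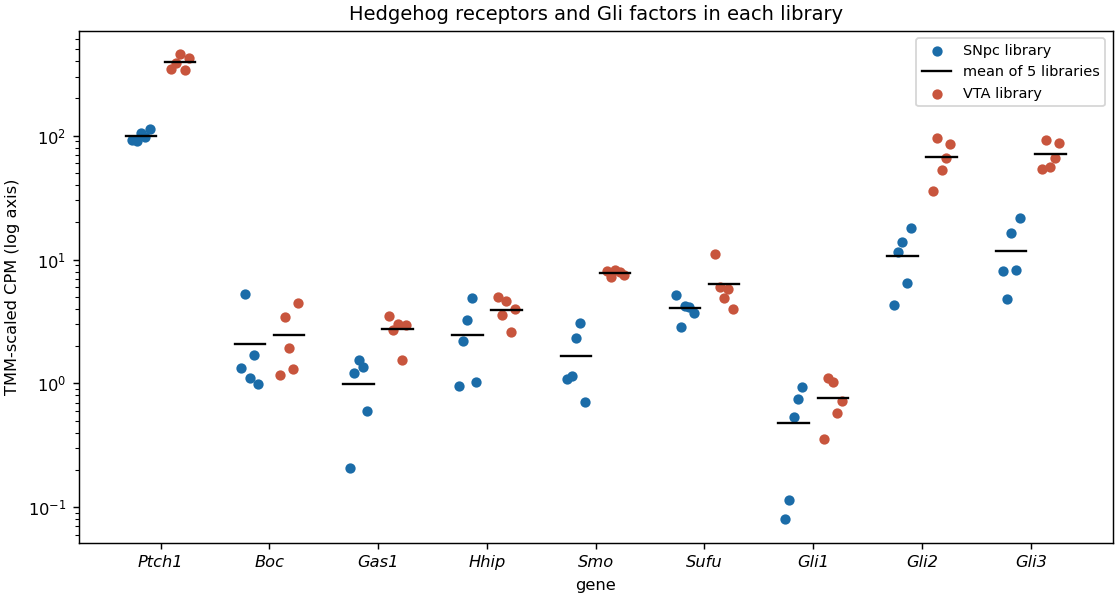
TMM-scaled CPM (log axis) of each member in the 5 SNpc and 5 VTA libraries; points are libraries and bars the means. Ptch1, Smo, Gli2 and Gli3 leave a gap between the regions, whereas the libraries of the other 5 genes overlap.

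Among the receptors, Ptch1 (Entrez 19206, mm10 chromosome 13, 63508328 to 63573598, minus strand) had 91.6, 90.3, 106, 97.6 and 114 CPM in libraries 1, 2, 3, 4 and 6 of the SNpc. For libraries 1, 2, 4, 5 and 6 of the VTA the values were 345, 389, 453, 341 and 427. The lowest VTA library was 3.01 times the highest SNpc library, and the libraries of each region lay close together, with coefficients of variation of 9.84% in SNpc and 12.6% in VTA. The log2 fold change, SNpc minus VTA, was -1.97 with a standard error of 0.11, the smallest error of the 9 members.

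The co-receptors that present ligand to Ptch1 were scarce. Gas1, a membrane-anchored co-receptor (Entrez 14451, chromosome 13, 60174405 to 60177365), was 0.207, 1.21, 1.55, 1.35 and 0.599 CPM in SNpc and 3.51, 2.71, 3.01, 1.53 and 2.98 CPM in VTA, in the same library order. Only VTA library 5 reached into the SNpc range, just under SNpc library 3. The log2 fold change was -1.48 ± 0.55 (SE), and its call held in 9 of 21 alternatives, ending among others when library 1, 2 or 6 of the SNpc or library 1, 2, 4 or 6 of the VTA was left out. Boc, an immunoglobulin-domain co-receptor (Entrez 117606, chromosome 16, 44485049 to 44558897), was 1.32, 5.26, 1.11, 1.70 and 0.987 CPM in SNpc and 1.18, 3.45, 1.94, 1.32 and 4.43 CPM in VTA. SNpc library 2 was the highest of all 10, and the log2 fold change was -0.25 ± 0.56 (SE), or -0.94 without that library and 0.08 without VTA library 6. Boc thus gave no direction that outlasted the loss of 1 library.

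Hhip, a decoy that binds hedgehog ligands and keeps them from Ptch1 (Entrez 15245, chromosome 8, 79965851 to 80058006), was 0.954, 2.18, 3.27, 4.93 and 1.02 CPM in SNpc and 4.94, 3.54, 4.59, 2.62 and 3.98 CPM in VTA. SNpc library 4, the one with high astrocyte and oligodendrocyte levels, matched the highest VTA library, and SNpc libraries 1, 2 and 6 lay below every VTA library. The log2 fold change was -0.67 ± 0.45 (SE), -1.01 without SNpc library 4 and 0.09 with glial markers as a covariate. Its direction therefore turned under that covariate.

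The transducer Smo (Entrez 319757, chromosome 6, 29735503 to 29761365) was 1.08, 1.14, 2.32, 3.09 and 0.712 CPM in SNpc and 8.15, 7.28, 8.25, 7.99 and 7.51 CPM in VTA. The VTA libraries were almost level (coefficient of variation 5.4%) while the SNpc libraries spread over 59.8%, with library 4 the highest. The log2 fold change was -2.23 ± 0.38 (SE), and the lowest VTA library was 2.35 times the highest SNpc library. Sufu, the cytoplasmic protein that restrains the Gli factors (Entrez 24069, chromosome 19, 46396896 to 46488804), was 5.20, 2.87, 4.24, 4.16 and 3.69 CPM in SNpc and 11.0, 5.97, 4.91, 5.80 and 4.0 CPM in VTA. VTA library 1 stood far above the other 9, and VTA libraries 4 and 6 lay within the SNpc range. The log2 fold change was -0.65 ± 0.31 (SE), and -0.36 without VTA library 1.

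Of the Gli factors, Gli2, the main activator form in most tissues (Entrez 14633, chromosome 1, 118834132 to 119053619), was 4.29, 11.6, 13.7, 6.42 and 17.8 CPM in SNpc and 35.9, 95.6, 52.9, 66.0 and 85.1 CPM in VTA. Gli3, the main repressor form (Entrez 14634, chromosome 13, 15463235 to 15730026), was 8.02, 4.82, 16.3, 8.25 and 21.7 CPM in SNpc and 53.7, 92.7, 55.9, 66.3 and 87.2 CPM in VTA. For both genes SNpc library 6 was the highest of its region and VTA library 2 the highest of all, and the regions did not overlap. The log2 fold changes were -2.64 ± 0.41 and -2.59 ± 0.39 (SE), ranks 169 and 182 of the 15685 genes tested when ordered from the most VTA-sided. The ratio of Gli3 to Gli2 counts lay between 0.970 and 1.5 in the VTA libraries and between 0.417 and 1.87 in the SNpc libraries. The wider SNpc range came from libraries 1 (1.87) and 2 (0.417), while SNpc libraries 3, 4 and 6 lay at 1.18 to 1.28. Gli1, an activator whose own transcription follows pathway activity (Entrez 14632, chromosome 10, 127329882 to 127341974), did not share the gap between the regions. It was 0.0795, 0.114, 0.532, 0.746 and 0.938 CPM in SNpc and 0.358, 1.10, 1.03, 0.573 and 0.719 CPM in VTA, from 5 to 73 counts per library. Its libraries overlapped, and the log2 fold change of -0.64 had a standard error of 0.81, wide enough to hold a difference in either direction.

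Some counts are uncertain because the kit does not mark the strand and how reads were assigned is not given. Exons of Gli1 overlap those of Arhgap9 on the opposite strand, which had 0 to 12 counts in 9 libraries and 49 in SNpc library 1. They also overlap the antisense Gm47200. Exons of Gas1, Gli3 and Hhip overlap the noncoding Gm48488, Gm6556 and Gm27820, also on the opposite strand.

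**Figure D2:**
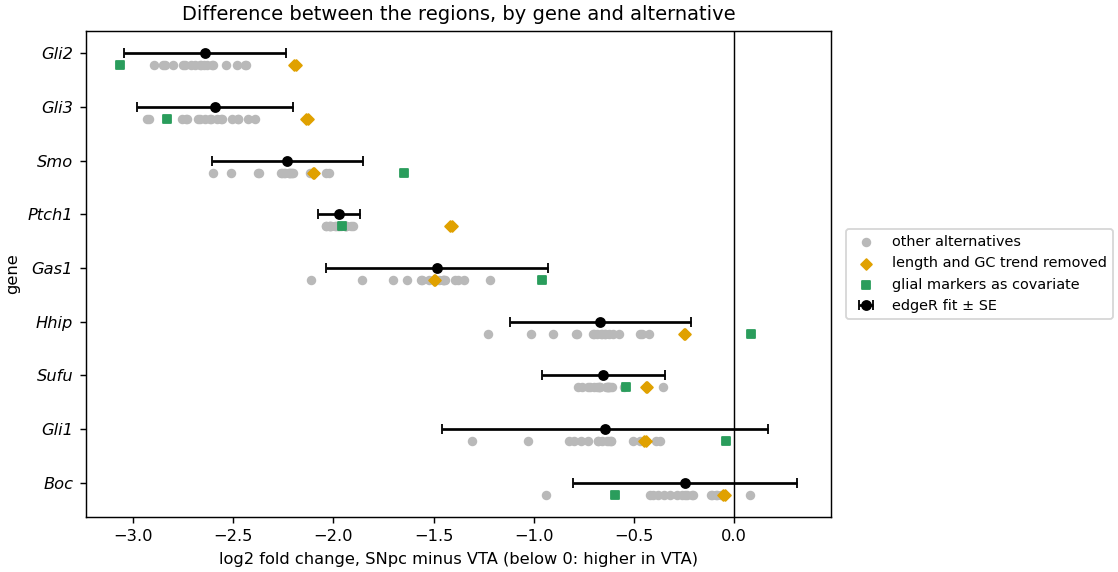
Log2 fold change of each member, SNpc minus VTA, with its standard error (black) and under each of the alternatives (coloured and grey points). All members but Hhip and Boc stay below 0 under every alternative plotted, and Hhip and Boc each have 1 value above 0.

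Promoter sequences are shown for the 4 genes whose regions did not overlap, all higher in VTA. Within each region Smo was lowest in the library where Gli2 and Gli3 were highest (SNpc library 6 and VTA library 2). RefSeq promoters (GRCm38.p6, 250 bases before to 50 after the gene's start) were found for 7 of the 9 members, all but Boc and Gli1. The Gli consensus GACCACCCA (TGGGTGGTC on the other strand) was in 0 of the 7, also with 1 mismatch allowed, and these letters are in 0.253% of all 32851 promoters, or 6.74% with 1 mismatch. Capitals below mark the GC box GGGCGG (or CCGCCC), the motif bound by Sp1-type factors, which was searched afterwards. It was in 6 of the 7 promoters and in 35.7% of all. The box holds only G and C, and the 7 promoters were richer in both than most. The shares are therefore not like for like, and no enrichment is read from them. The RefSeq starts of Ptch1 and Gli3 lie 7863 and 488 bases inside the GENCODE spans of the genes, which begin further upstream. The windows of both therefore lie within the gene spans.
Ptch1 (chr13:63565686-63565985, minus strand): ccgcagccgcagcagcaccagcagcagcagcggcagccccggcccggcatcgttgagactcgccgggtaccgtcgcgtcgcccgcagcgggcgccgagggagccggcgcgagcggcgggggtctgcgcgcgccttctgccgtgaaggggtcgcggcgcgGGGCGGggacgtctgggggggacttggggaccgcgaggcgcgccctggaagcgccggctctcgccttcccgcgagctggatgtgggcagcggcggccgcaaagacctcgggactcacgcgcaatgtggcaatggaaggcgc
Gli2 (chr1:119053570-119053869, minus strand): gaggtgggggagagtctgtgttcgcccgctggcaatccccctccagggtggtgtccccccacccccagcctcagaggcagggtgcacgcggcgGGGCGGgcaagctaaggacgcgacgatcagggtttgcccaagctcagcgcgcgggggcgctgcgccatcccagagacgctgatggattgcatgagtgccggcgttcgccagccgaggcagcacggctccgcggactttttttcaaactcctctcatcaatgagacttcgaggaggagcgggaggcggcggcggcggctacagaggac
Gli3 (chr13:15463473-15463772, plus strand): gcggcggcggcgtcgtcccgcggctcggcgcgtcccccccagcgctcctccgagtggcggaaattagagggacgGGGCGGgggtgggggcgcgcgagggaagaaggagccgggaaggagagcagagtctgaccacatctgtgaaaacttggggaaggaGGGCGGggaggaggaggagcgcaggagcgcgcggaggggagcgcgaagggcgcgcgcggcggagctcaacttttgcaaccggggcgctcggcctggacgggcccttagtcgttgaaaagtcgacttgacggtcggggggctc
Smo (chr6:29735247-29735546, plus strand): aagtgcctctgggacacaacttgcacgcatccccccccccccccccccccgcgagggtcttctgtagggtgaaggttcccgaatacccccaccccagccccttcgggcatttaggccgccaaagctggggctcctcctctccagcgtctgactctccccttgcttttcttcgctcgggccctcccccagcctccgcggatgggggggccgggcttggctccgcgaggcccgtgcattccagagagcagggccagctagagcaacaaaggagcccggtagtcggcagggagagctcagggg
The 7 promoters were richer in G and C than most. Their GC content ran from 56.3% in Sufu to 76.3% in Ptch1, against a median of 52.7% over all promoters, and they held 12 to 47 CpG dinucleotides against a median of 7. Overlapping members and separate members did not sort fully by this measure. Hhip, with overlapping libraries, had 73.7%, above Smo (67.7%), Gli2 (67.3%) and Gli3 (71.0%). Gas1 (62.3%) and Sufu (56.3%), also with overlapping libraries, lay below all 4 separate members.

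To set the members beside each other, CPM was divided by the length of the longest GENCODE transcript in kilobases. In VTA the order of mean levels per kilobase was Ptch1 (37.7), Gli2 (10.1), Gli3 (8.71), Smo (2.07), Sufu (1.40), Gas1 (0.928), Boc (0.553), Hhip (0.434) and Gli1 (0.186). Ptch1 stood clear of Gli2, and Gli3 stood clear of Smo, whereas Gli2 and Gli3 overlapped (5.41 to 14.4 and 6.57 to 11.3), as did each neighbour from Smo to Hhip with the next. Gli1 (at most 0.271) lay under the lowest Hhip library (0.289). In SNpc the order was Ptch1 (9.61), Gli2 (1.62), Gli3 (1.45), Sufu (0.891), Boc (0.467), Smo (0.441), Gas1 (0.332), Hhip (0.272) and Gli1 (0.119). There only Ptch1 stood clear of its neighbour, and Smo moved from sixth place to the fourth in VTA. By level per kilobase Ptch1 lay at percentile 63.2 of 14797 tested genes in SNpc and 89.7 in VTA, and Gli1 at 4.87 and 4.21. Per kilobase, Ptch1 exceeded Gli1 by 47.3 to 450 times in the SNpc libraries and by 138 to 377 times in the VTA libraries, although both are described as targets of the same factors.

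Transcript length moved with the region and touches the longer members. Ptch1 (10383 bases), Hhip (9074), Gli3 (8170) and Gli2 (6637) are in the longest of 5 equal groups of tested genes by transcript length (5332 bases or more), whose median log2 fold change was -0.46. It was 0.32 in the shortest group (2000 bases or less) and -0.04 over all genes tested. With a length and GC trend removed from each library, the log2 fold changes became -1.42 for Ptch1, -2.20 for Gli2, -2.13 for Gli3 and -0.25 for Hhip. Smo (3779 bases), in the middle group, changed least of the separate genes, from -2.23 to -2.10. The calls of Ptch1, Gli2, Gli3 and Smo held in 21 of 21 alternatives each.

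Markers of other cells also moved with the region. Of 12 astrocyte markers 4 were called higher in VTA and 0 in SNpc (edgeR, with 0 at an unadjusted p under 0.05 and 0 by DESeq2). The summed level of the 12 was 286 to 520 CPM in SNpc and 508 to 664 CPM in VTA. Slc1a2 alone averaged 276 CPM in SNpc and 470 CPM in VTA and so made up most of that sum. Gfap, Aqp4 and Aldh1l1 were not called. The mean log2 CPM of the list differed by -0.86 (two-sided exact permutation p = 0.0476, adjusted p = 0.107 over 9 lists, n = 5 each). Oligodendrocyte precursor markers (4 of 7 higher in VTA, 28.5 to 84.4 against 65.8 to 92.7 CPM summed) differed by -0.99, and pericyte and fibroblast markers (3 of 6 tested of 8 listed, 4.34 to 10.9 against 8.54 to 53.3 CPM) by -1.46, each with exact permutation p = 0.0159 and adjusted p = 0.0476. Dopaminergic markers went the other way, with 11 of 12 higher in SNpc, a summed level of 10944 to 15930 against 5632 to 9230 CPM and a difference of 0.65 (exact permutation p = 0.00794, the smallest possible, adjusted p = 0.0476). Leaving out 1 library gave differences of 0.55 to 0.72 for dopaminergic, -1.19 to -0.86 for precursor and -1.73 to -1.0 for pericyte and fibroblast markers, and with fewer libraries the exact test can reach only larger p-values. VTA library 1 had the highest pericyte and fibroblast sum (53.3 CPM, other VTA libraries 8.54 to 18.4), and without it that difference was the smallest of its range.

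Oligodendrocyte (1 of 10 higher in VTA, 296 to 1409 against 761 to 941 CPM), endothelial (2 of 7 tested of 9 listed, 1.46 to 13.3 against 4.18 to 103 CPM), microglial (1 of 10 in each direction, 45.8 to 69.7 against 54.3 to 74.3 CPM), ependymal (0 of 5 tested of 7 listed, 24.7 to 30.6 against 24.8 to 36.6 CPM) and other neuronal markers (2 of 10 in VTA and 1 in SNpc, 112 to 413 against 279 to 415 CPM) did not pass the same test. Without SNpc library 4 the astrocyte, oligodendrocyte, endothelial and other neuronal lists passed, with differences of -1.15, -0.87, -2.17 and -1.20. The endothelial difference was -1.72 over all libraries and -0.92 without VTA library 1. For the ependymal list 1 gene had an unadjusted p under 0.05 and 1 was called by DESeq2. Of all markers, Cldn5, Kcnj8 and C1qa were at 0 in 3 libraries each, Ccdc153 and Tmem212 in 6, Lum in 2 and Trem2, Slc17a8 and Slc6a4 in 1, and none was at 0 in all 10. The astrocyte markers Aqp4 and Aldh1l1 reached 21.9 and 5.80 CPM in SNpc library 4, where Ptch1 (97.6 CPM), Gli2 (6.42), Gli3 (8.25) and Smo (3.09) stayed under every VTA library. Markers of other cells were mixed there. Pdgfra of oligodendrocyte precursors (5.86 CPM, lowest VTA library 7.57) stayed under every VTA library too. So did Pdgfrb of pericytes (0.533, lowest VTA library 3.98) and P2ry12 of microglia (20.1, lowest VTA library 30.9). Exons of P2ry12 overlap those of Med12l, a protein-coding gene on the opposite strand, so its counts may not be microglial. Of the other markers named for precursors, pericytes and microglia, Vcan (18.3), Cspg4 (3.82) and Rgs5 (2.63) lay within the VTA range. Aif1 (2.86, highest VTA library 0.633), Cx3cr1 (6.39, highest 2.32) and Kcnj8 (0.731, highest 0.323) lay above every VTA library. The oligodendrocyte markers Mbp (360, highest VTA library 297), Mog (28.6, highest 15.6) and Mag (15.3, highest 13.8) did as well. Of the neuronal markers, Gad1 (67.6, highest 27.7) and Slc32a1 (24.9, highest 12.8) lay above every VTA library and Gad2 (221) within the VTA range. Endothelial Cldn5, Pecam1 and Flt1 lay within it too. Within VTA, library 1 had the highest astrocyte level by mean log2 CPM (3.70) and the lowest Gli2 and Gli3. Library 2 had the lowest level (3.17) and the highest Gli2 and Gli3, but the lowest Smo (7.28 CPM). By summed CPM of the astrocyte markers, VTA library 4 was highest (664) and library 5 lowest (508), with library 1 at 659 and library 2 at 585. With the mean of astrocyte, oligodendrocyte and precursor markers as a covariate, the log2 fold changes were -1.96 for Ptch1, -3.07 for Gli2, -2.83 for Gli3 and -1.65 for Smo. For Gas1 and Gli1 they were -0.96 and -0.04. This covariate was 2.78 to 3.16 in SNpc libraries 1, 2, 3 and 6 and 3.90 to 4.24 in the VTA libraries. Only SNpc library 4 (4.42) crossed, so apart from that library the covariate moved with the region. How much of the members' RNA came from other cells was not tested.

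**Figure D3:**
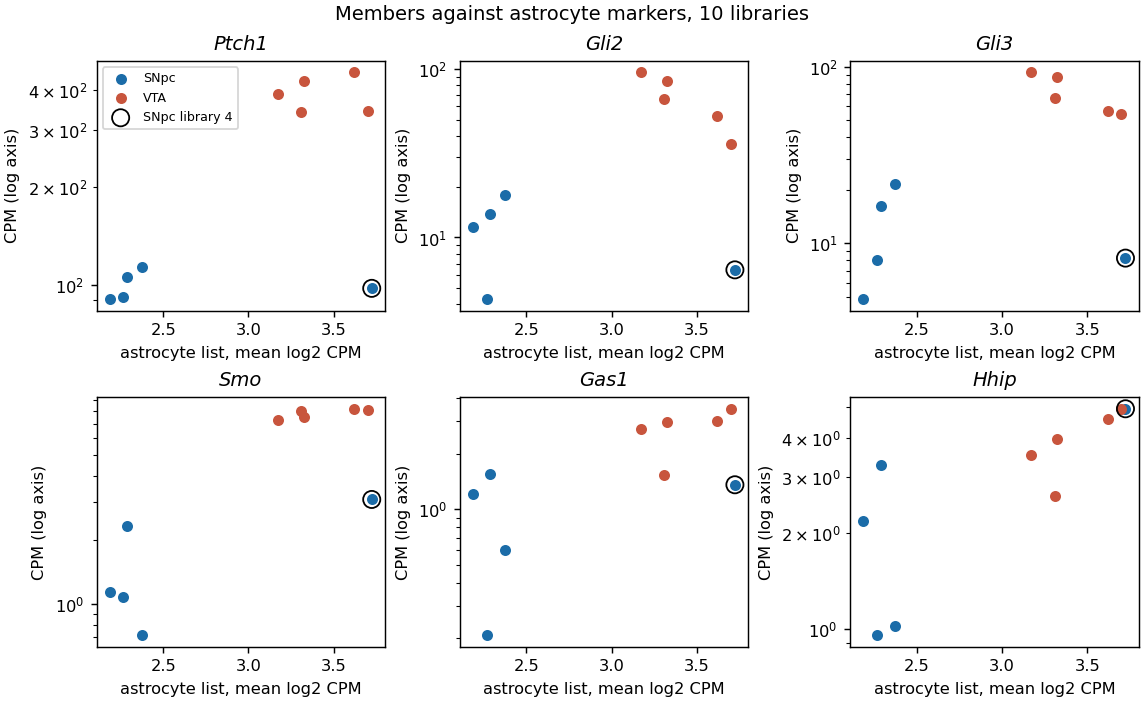
CPM of 6 members (log axis) against the mean log2 CPM of 12 astrocyte markers in the 10 libraries. SNpc library 4 (circled) reaches the VTA range of the markers on this scale (3.72) but stays with the SNpc libraries for Ptch1, Gli2, Gli3 and Smo, and lies at the VTA level for Hhip. Its oligodendrocyte marker level, not plotted, was above every VTA library.

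Other genes of the pathway were read from the same fit, from 6 lists of 102 genes, of which 98 were tested. Of these, 27 were higher in VTA and 15 in SNpc, where 20.4% and 17.8% of all genes tested were, so the counts lay near the background. The median log2 fold change was -0.19, against -0.04 over all genes. The counts and medians of the lists below are descriptions, to be read beside the same background.

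Of the 6 tested genes for ligands and their release, 3 were higher in VTA and 0 in SNpc (edgeR, 0 at an unadjusted p under 0.05 and 0 by DESeq2), with a median of -1.05. Disp1, which releases lipid-bound ligand from the producing cell, averaged 8.90 ± 1.49 CPM (SD, n = 5 libraries) for SNpc against 16.4 ± 3.03 for VTA, with a log2 fold change of -0.88 (edgeR, adjusted p = 0.00151). The secreted carrier protein Scube3 (-2.57) and the acyltransferase Hhat (-1.58), which adds the palmitate that active ligands carry, were higher in VTA too. The call of Hhat ended without SNpc library 1 or 2 or VTA library 1 or 2. Scube2 (1.36 ± 1.10 against 3.15 ± 1.67 CPM) and Scube1 (20.7 ± 4.4 against 16.2 ± 2.64 CPM) did not pass, but without SNpc library 4 both did, with log2 fold changes of -1.71 and 0.50. Scube1 also passed with the length and GC trend removed (0.73). Shh itself, named outside the rule for named genes and after its values were seen, was low and alike in the regions within error, at 4.96 ± 1.00 and 5.80 ± 1.56 CPM (log2 fold change -0.23 ± 0.27, SE, edgeR adjusted p = 0.537). Ihh and Dhh had 18 and 61 reads in all 10 libraries together and were not tested.

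Of the 4 other receptor genes, 3 were higher in VTA and 1 in SNpc, with a median log2 fold change of -1.77. Cdon, the co-receptor related to Boc, was 3.41 ± 1.17 against 7.77 ± 0.803 CPM (-1.19), without overlap of the libraries, and the endocytic receptor Lrp2 was 0.103 ± 0.120 against 1.10 ± 0.550 CPM (-3.39). The call of Lrp2 ended with the length and GC trend removed (-2.69) and with glial markers as a covariate (-2.64). Gpr161, a ciliary receptor that holds the pathway off, was the exception, at 8.44 ± 0.995 CPM for SNpc against 5.39 ± 1.34 for VTA (0.65, edgeR adjusted p = 0.0395). Its call was lost when library 1, 2 or 3 of the SNpc or library 1, 2, 5 or 6 of the VTA was left out.

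Among 27 regulators of Smo and Gli, 7 were higher in VTA and 5 in SNpc, and the median was -0.02. Prkar1a, the regulatory subunit of protein kinase A, was the most abundant of those higher in SNpc, at 943 ± 72.7 against 635 ± 36.2 CPM (log2 fold change 0.57, edgeR adjusted p = 4.61e-05). The ciliary trafficking protein Tulp3 (-1.06) and the ubiquitin ligase components Itch (-0.61) and Spop (-0.77), the last an adaptor for Gli degradation, were higher in VTA. The kinase Gsk3b averaged 756 ± 73.3 CPM for SNpc against 948 ± 80.4 for VTA (-0.33), but turned to 0.10 with the length and GC trend removed. With glial markers as a covariate 5 regulators were called in VTA and 1 in SNpc.

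Of 11 tested genes described elsewhere as Gli targets, 5 were higher in VTA and 0 in SNpc (edgeR, 0 at an unadjusted p under 0.05 and 0 by DESeq2), with a median of -1.04. The survival gene Bcl2 averaged 33.5 ± 4.89 CPM for SNpc against 70.4 ± 11.7 for VTA (log2 fold change -1.07 ± 0.14, SE, adjusted p = 1.99e-05 by edgeR). The cyclins Ccnd2 (-1.02) and Ccnd1 (-0.85) were higher in VTA as well. The 5 became 8 without SNpc library 4 or by DESeq2 and 3 with glial markers as a covariate. Bcl2, Ccnd1 and Ccnd2 share exonic sequence with opposite-strand transcripts.

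The Zic and Glis genes encode zinc fingers related to those of the Gli proteins. Of 8, 5 were higher in VTA and 0 in SNpc (edgeR, 0 at an unadjusted p under 0.05 and 0 by DESeq2), with a median of -1.87. Zic2 averaged 1.62 ± 1.04 CPM for SNpc against 7.41 ± 1.80 for VTA (log2 fold change -2.19 ± 0.40, SE, adjusted p = 3.99e-04 by edgeR), and Glis2, the most abundant Glis gene, was 14.9 ± 4.78 against 32.6 ± 8.58 CPM (-1.13). Glis1 (-1.86) and Glis3 (-3.08) were also called, the latter with SNpc library 4 at 1.70 CPM and the other SNpc libraries at 0.203 CPM or less. The call of Glis3 ended without SNpc library 3 or VTA library 2, and its log2 fold change was -5.40 without SNpc library 4. Zic1, at 8.83 ± 10.9 against 32.6 ± 14 CPM, did not pass but did without SNpc library 4 (-2.90). The 5 became 3 without SNpc library 3 or VTA library 2 and 1 with the glial marker level in the model. Exons of Glis2 and Zic1 overlap those of the protein-coding Pam16 and Zic4 on the opposite strand.

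Smo acts in the primary cilium. Of 43 cilium genes tested, 9 were called in SNpc, against 17.8% of all genes, and 5 in VTA, against 20.4%, and their median was 0.12. Ift57, a subunit of intraflagellar transport, averaged 83.4 ± 9.80 CPM for SNpc against 36.3 ± 4.05 for VTA (log2 fold change 1.20 ± 0.12, SE, adjusted p = 1.15e-06 by edgeR). The ciliary GTPase Arl3 (0.51) and the kinesin-2 subunits Kifap3 (0.40) and Kif3a (0.28) were higher in SNpc, and the ciliary dynein Dync2h1 (-0.71) in VTA. With the length and GC trend removed Dync2h1 stood at -0.10 and Arl3 at -0.0048, neither called, and 6 cilium genes were called in SNpc and 1 in VTA. The 5 in VTA became 3 when library 1, 2 or 3 of the SNpc or library 1, 2 or 6 of the VTA was left out. The call of Kif3a held in 6 of 21 alternatives, ending when library 1, 3 or 6 of the SNpc or library 1, 4, 5 or 6 of the VTA was left out.

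**Figure D4:**
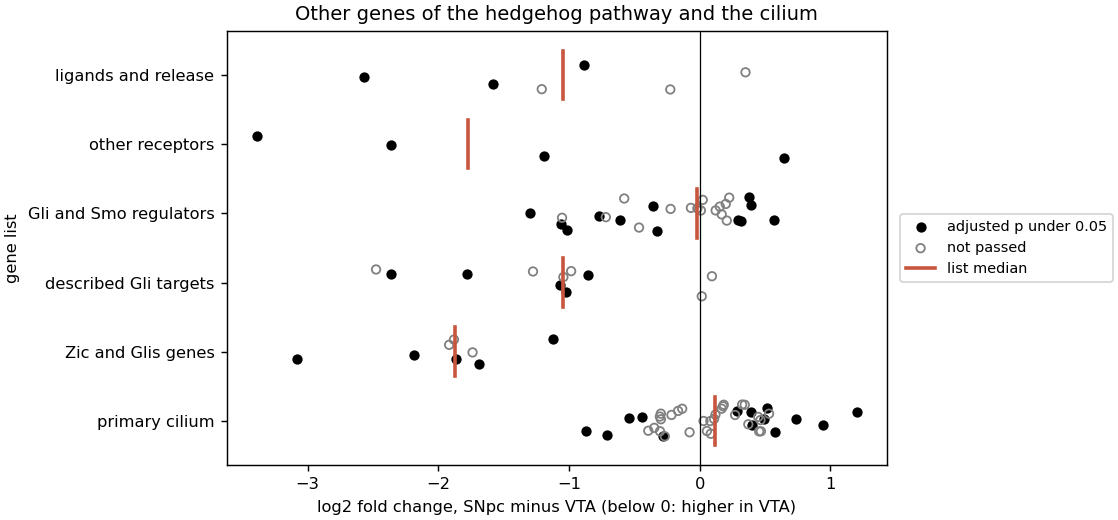
Log2 fold change, SNpc minus VTA, of the tested genes in 6 lists; filled points passed the edgeR test at an adjusted p under 0.05 and bars are list medians. The medians of receptors (-1.77), Zic and Glis genes (-1.87), ligand genes (-1.05) and described targets (-1.04) lie below 0, and those of regulators (-0.02) and cilium genes (0.12) near it.

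The genes most like Gli2 and Gli3 over the 10 libraries were sought among 13897 genes by the root mean square difference of log2 CPM after each gene was centred on its mean. Nearest to Gli2 were Jmjd1c (0.247), Tnrc18 (0.324), Prr12 (0.358), the histone demethylase Kdm6b (0.371) and Qser1 (0.392). Nearest to Gli3, leaving out a gene with a placeholder symbol at rank 3, were the nuclear pore protein Ranbp2 (0.398), Prr12 (0.439), Jmjd1c (0.460), Micalcl (0.468) and the histone methyltransferase Mll3 (0.471). The measure includes the difference between regions, and the log2 fold changes of these 8 genes lay between -2.07 and -2.80. Gli2 and Gli3 differed from each other by 0.535, rank 39 among the neighbours of Gli2 and rank 20 among those of Gli3. Ptch1 was at rank 162 and 95 and Smo at 772 and 558, while Boc was at 5528 and 9601.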

How the data were processed

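The deposited values are counts of reads per gene, whole numbers with no normalization by the authors, in 12 columns for 23079 genes. The submitters' processing notes name TopHat2 2.0.8 and mm10. How reads were assigned to genes, with which annotation, strand setting and filters, is not given in the sources used here. Per the labels' protocols, cDNA came from the NuGEN Ovation V2 kit and TruSeq libraries.

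The members and gene lists were chosen with earlier results of these data known. Identical columns were counted once, leaving 10 libraries. Genes were filtered by filterByExpr (15685 kept), scaled by TMM and tested with edgeR 4.0.16 in R 4.3.3 by the robust quasi-likelihood F test, without covariates. Benjamini-Hochberg adjustment ran over all genes tested, and calls are under 0.05. Log2 fold changes give SNpc relative to VTA, and log2 CPM used a prior count of 2. Marker levels were compared by two-sided exact permutation tests (SciPy 1.17.1). The fitting code was tested on simulated data.

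Alternatives were DESeq2 1.42.0, other scalings and filters, all columns, a replicate block, a length and GC trend (splines with 4 degrees of freedom, transcripts of GENCODE M21, which 20945 genes had), glial markers as a covariate and leaving out each library. Named genes are all members, in each pathway list the 4 genes of lowest p and the 2 of highest mean CPM, the 5 nearest to Gli2 and to Gli3 with a mean of at least 1 CPM, and the first 3 markers of each cell type. Coordinates are from GENCODE on GRCm38, the build of mm10, and promoters from RefSeq. Of the columns, 0 lacked a sample, and 0 lines named no gene. One gene that the naming rule picks is not reported here by name, though list counts include it.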

Additional observations from a re-analysis of the deposited data

Results flagged for a closer look

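In groups of 5 libraries, a library was picked out where its gap to the nearest other exceeded 0.71 of the whole range, which chance gives in about 1 in 20 groups. Of 90 groups looked at, 7 had such a library. Among the members, Boc was 5.26 CPM in SNpc library 2 with the next library at 1.70, and Sufu was 11.0 CPM in VTA library 1 with the next at 5.97. Of the other pathway genes, Hhat was 2.01 CPM in SNpc library 6 (next 1.27), Cdon 5.46 CPM in SNpc library 2 (next 3.30), Glis3 1.70 CPM in SNpc library 4 (next 0.203) and Arl3 87.9 CPM in VTA library 6 (next 67.6). The astrocyte list had a mean log2 CPM of 3.72 in SNpc library 4, with the next SNpc library at 2.37. The co-receptors Boc and Cdon thus both had their highest SNpc value in library 2.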

How the results depend on the processing

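Over all genes, 2793 were called in SNpc and 3203 in VTA. With glial markers as a covariate these became 1238 and 1927, and the pathway genes other than the members went from 15 and 27 to 5 and 14, while 4 members were still called higher in VTA. Leaving out 1 library gave 2284 to 3317 genes in SNpc and 2790 to 3193 in VTA, 12 to 19 and 22 to 33 pathway genes, and 4 to 5 members in VTA. The replicate numbers as labelled gave no sign of pairing: for the 4 shared numbers the correlations of same-numbered deviations ran from -0.0723 to 0.0443, and 2 of 8 libraries correlated best with their own number. The replicate block over those 8 libraries gave 1789 calls in SNpc against 2543 in VTA, and the same libraries without the block, an alternative added after the data were seen, gave 2242 and 2677. The block left 4 members called, without Gas1, whose log2 fold change was -2.11 there. Since SNpc columns 4 and 5 are identical, as are VTA columns 2 and 3, the numbers 4 and 2 are uncertain among the shared ones. Among fold changes, Hhip turned to 0.0856 and Scube1 to -0.0181 with glial markers as a covariate, Gsk3b to 0.10 and 0.11 and Arl3 to -0.0048 with the length and GC trend removed (scale kept, and for Gsk3b also refitted), and Boc ran from -0.94 to 0.0778 when 1 library was left out. The causes were not tested. Marker levels by the log2 of the summed CPM differed by -0.80 for astrocytes (adjusted p = 0.0476 by the exact permutation test) and -0.84 for oligodendrocyte precursors (adjusted p = 0.0714). Slc1a2 alone made up most of the astrocyte sum. Without 1 library, differences ran from 0.55 to 0.72 for dopaminergic, -1.19 to -0.86 for precursor, -1.73 to -1.0 for pericyte, -1.15 to -0.76 for astrocyte, -0.87 to -0.35 for oligodendrocyte, -2.17 to -0.92 for endothelial and -1.20 to -0.73 for other neuronal markers. The last 4 passed without SNpc library 4. With counts of 5 to 73 per library, Gli1 allowed no finer comparison.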
